A study of Mus musculus with 2 samples.

Results

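Unmasked intergenic Nanog peaks within 100 kb of a gene were the 1449 of 8735 distinct Nanog peaks on chromosomes 1 to 19 and X (16.6%, exact 95% Clopper-Pearson interval 15.8 to 17.4%) whose middle base met 4 conditions. The middle base lay in no annotated gene, over 5 kb from the transcription start site (TSS) of every gene, at most 100 kb from a protein-coding TSS, and outside the repeats and low-complexity sequence that the mouse reference genome writes in lower case (soft-masked). These peaks are called members here. They were compared with 3 other classes of peak: 2686 in unmasked introns over 5 kb from a TSS, 763 in unmasked intergenic sequence over 100 kb from a protein-coding TSS, and 478 whose middle base was soft-masked but met the same distance limits as members. The intronic class had no upper limit on the distance to a protein-coding TSS.

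The peaks came from chromatin immunoprecipitation and sequencing (ChIP-seq) with a rabbit monoclonal antibody to Nanog (D1G10) in mouse embryonic stem cells (ESCs) of the Bruce-4 line, grown in serum with LIF, with no genetic change or treatment named in the labels. The series has 1 immunoprecipitated sample and 1 input sample of the same line, and only the first has a peak list. With 1 library of 1 line there is no replicate error, and every interval below is a 95% interval that covers counting error only and treats peaks as independent. The list gives positions without a height, a score or a read count, so the strength of a peak and the depth behind it are unknown.

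Nanog is a homeodomain transcription factor of the pluripotency network. It binds many of the same distal elements as Oct4 and Sox2, which together recognise a composite DNA motif, and as Klf4 and Esrrb. Distal enhancers of ESCs often lie between genes and act on promoters some distance away, so a nearest gene is a label of position and not a known target.

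Member sequences are given first because the motif results rest on them. The Oct4-Sox2 composite was searched as the Sox half-site CATTGT and the octamer ATGCAAAT with 1 base of any kind between them, allowing at most 2 mismatches over the 14 bases compared, on both strands. No member held a copy without mismatch, and 7 copies had 1 mismatch. Each is shown in a 60 bp window of the plus strand of mm10 (GRCm38), in lower case with the composite in capitals, under the name of the nearest protein-coding gene.
Six4, chr12:73086051-73086110: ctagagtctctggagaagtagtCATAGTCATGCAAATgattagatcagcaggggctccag
Col14a1, chr15:55268229-55268288: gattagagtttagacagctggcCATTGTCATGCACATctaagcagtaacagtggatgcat
Prr5, chr15:84622202-84622261: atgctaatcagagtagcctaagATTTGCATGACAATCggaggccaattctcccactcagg
Plppr4, chr3:117310927-117310986: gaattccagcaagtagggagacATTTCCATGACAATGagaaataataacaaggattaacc
Kcnj1, chr9:32415139-32415198: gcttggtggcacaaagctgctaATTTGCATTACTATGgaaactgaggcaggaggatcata
Fzd7, chr1:59426993-59427052: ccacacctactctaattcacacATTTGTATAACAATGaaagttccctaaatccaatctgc
Zfp14, chr7:30031571-30031630: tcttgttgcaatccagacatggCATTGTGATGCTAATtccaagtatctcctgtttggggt
The copies near Six4, Col14a1 and Zfp14 read the Sox half-site first on the plus strand, and the other 4 read it on the minus strand. All 7 peaks lay between genes, from 19.8 kb (Zfp14) to 55.3 kb (Fzd7) from the nearest protein-coding TSS. Every distance upstream or downstream of a gene below likewise runs from its TSS, not its end, to the middle of the peak. Fzd7 encodes a Wnt receptor, and Six4 a homeodomain transcription factor.

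The member with the most kinds of motif lay 14.2 kb upstream of Scg2, which encodes a secretory granule protein. It held 7 of the 19 motifs searched, 5 of them within the 300 bp around its centre, where all copies are in capitals.
Scg2, chr1:79454208-79454507: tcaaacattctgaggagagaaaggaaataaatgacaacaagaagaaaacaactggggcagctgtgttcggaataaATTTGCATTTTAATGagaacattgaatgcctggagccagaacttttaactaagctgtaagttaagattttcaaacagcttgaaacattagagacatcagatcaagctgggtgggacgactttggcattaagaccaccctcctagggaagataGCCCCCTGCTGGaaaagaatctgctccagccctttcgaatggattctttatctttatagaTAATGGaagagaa
The first run in capitals joins an Oct4-Sox2 composite and an octamer, the second joins a Zic and a CTCF motif, and the last is a Nanog core motif. Copies of different motifs can therefore share bases.

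The widest members near 3 pluripotency regulators are shown by their central 200 bp, with copies of any of the 19 motifs in capitals. Sall1 and Prdm14 encode zinc finger proteins, and Sox2 the partner of Oct4.
Sall1, chr8:89015697-89015896: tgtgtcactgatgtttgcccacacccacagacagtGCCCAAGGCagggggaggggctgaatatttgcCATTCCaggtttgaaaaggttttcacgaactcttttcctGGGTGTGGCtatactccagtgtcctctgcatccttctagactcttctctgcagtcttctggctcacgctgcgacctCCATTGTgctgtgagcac
Prdm14, chr1:13084900-13085099: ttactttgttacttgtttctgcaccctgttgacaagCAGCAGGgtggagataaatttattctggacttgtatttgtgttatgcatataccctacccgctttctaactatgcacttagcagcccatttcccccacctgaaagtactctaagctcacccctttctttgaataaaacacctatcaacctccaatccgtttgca
Sox2, chr3:34745356-34745555: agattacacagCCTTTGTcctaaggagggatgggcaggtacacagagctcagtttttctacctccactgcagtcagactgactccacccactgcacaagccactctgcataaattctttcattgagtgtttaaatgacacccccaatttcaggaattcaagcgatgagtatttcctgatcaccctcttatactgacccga
The Sall1 window held a Tfap2, a Tead, a Klf and a Sox copy in that order. The Prdm14 window held 1 Zic copy and the Sox2 window 1 Sox copy. The window at the widest member near Klf4, itself a Klf factor of the network, held no copy of any motif searched, and neither did the rest of that peak.

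Over each class as a whole, Nanog peaks were denser in this sequence than in the other classes. The bases that met the 4 conditions came to 285.4 Mb, or 11.2% of the sequence without N bases, and held 5.08 peaks per Mb (exact Poisson interval 4.82 to 5.35). Unmasked introns at any distance over 5 kb held 4.25 peaks per Mb (4.10 to 4.42), so the density of members was 1.19 times as high (1.12 to 1.27). This ratio was not matched on distance, and introns were not less dense in every band of distance, as given below. Unmasked intergenic sequence farther than 100 kb held 1.91 peaks per Mb (1.78 to 2.05), a ratio of 2.66 (2.43 to 2.91). Soft-masked intergenic sequence within the same distances held 2.46 peaks per Mb (2.24 to 2.69), a ratio of 2.07 (1.86 to 2.30). Eligible sequence was not corrected for mappability or for the blacklisted regions removed from the reads, and the part of this in the ratio to soft-masked sequence was not tested. The GC content of the 4 kinds of sequence was 43.4%, 43.0%, 39.7% and 40.8% in the same order and its part in these ratios was not tested. With members taken up to 200 kb from a protein-coding TSS, the ratio to introns was 1.06 (0.998 to 1.13), so that difference did not hold under the wider limit.

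The density of members fell with distance from genes. From 5 to 10 kb there were 7.29 peaks per Mb (6.41 to 8.25), and the next bands held 6.09 from 10 to 20 kb, 5.20 from 20 to 40 kb, 4.57 from 40 to 60 kb and 3.90 from 60 to 80 kb. From 80 to 100 kb there were 2.98 peaks per Mb (2.42 to 3.64), so the first band was 2.44 times as dense as the last (1.92 to 3.12). The intervals of neighbouring bands overlapped, and only bands farther apart were separate. In introns the same comparison of bands gave 5.97 and 3.93 peaks per Mb, a ratio of 1.52 (1.24 to 1.86). Up to 40 kb introns were less dense than members in each band, with 5.53 from 10 to 20 kb and 4.89 from 20 to 40 kb. Beyond 40 kb introns were denser than members in each band, with 5.23 from 40 to 60 kb and 4.44 from 60 to 80 kb. The intervals of members and introns overlapped in every band. The GC content of the member sequence was 44.1% in the first band and 42.4% in the last.

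**Figure D1:**
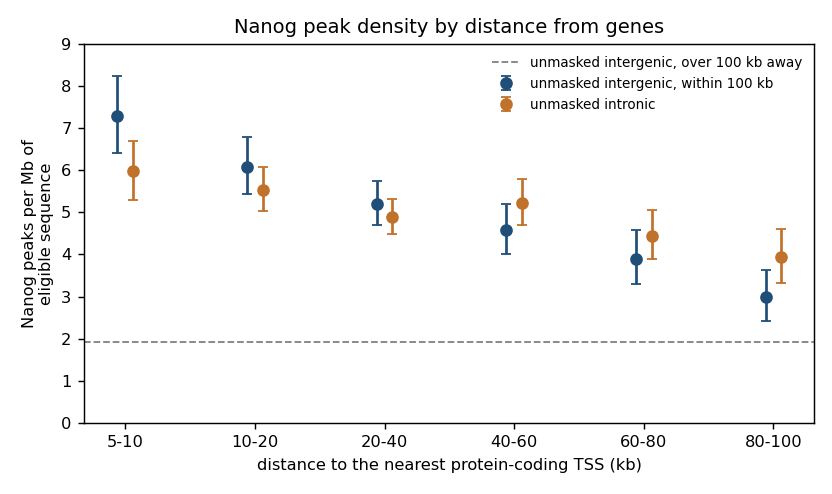
Nanog peaks per Mb of eligible sequence (y axis) in 6 bands of distance to the nearest protein-coding TSS in kb (x axis), for members (blue) and unmasked intronic peaks (orange); bars are exact 95% Poisson intervals and the dashed line is the density beyond 100 kb. Members go from 7.29 to 2.98 peaks per Mb and stay above the dashed line at 1.91, while intronic peaks go from 5.97 to 3.93.

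The median member lay 27.0 kb from the nearest protein-coding TSS (25.2 to 28.3), and 15.3 kb from the nearest TSS of any gene. For 763 members (52.7%) the nearest gene of any type was protein-coding, for 211 (14.6%) a lincRNA gene and for 202 (13.9%) a processed pseudogene. At the limits of the rule, the member closest to a TSS lay 5004 bp upstream of Rap1gap, and the peak just outside lay 4991 bp upstream of Gbx2. The farthest member lay 99176 bp upstream of Cops8, and the nearest peak beyond the limit lay 100003 bp upstream of Dpp6.

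Members lay on both sides of their nearest protein-coding gene. The 1042 members upstream gave 5.27 per Mb (4.96 to 5.60) and the 407 downstream gave 4.64 per Mb (4.20 to 5.11), a ratio of 1.14 (1.01 to 1.28). Beyond 20 kb the ratio was 1.05 (0.909 to 1.21), and in peaks at or above the median width of all peaks it was 1.09 (0.934 to 1.29), so neither interval excluded 1.

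Among chromosomes, the X chromosome had the lowest density. Its 36 members gave 1.65 per Mb (1.15 to 2.28), against 5.36 per Mb over the autosomes, a ratio of 0.307 (0.214 to 0.427). Counted per protein-coding gene in place of per Mb, the ratio was 0.559 (0.390 to 0.778). The number of X copies in the cells was not examined, and its part in both ratios was not tested. Chromosome 11 had the highest density, 8.02 per Mb (6.63 to 9.61), and chromosome 3 the lowest among autosomes, 3.41 per Mb (2.59 to 4.40). The intervals of the other autosomes overlapped each other.

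**Figure D2:**
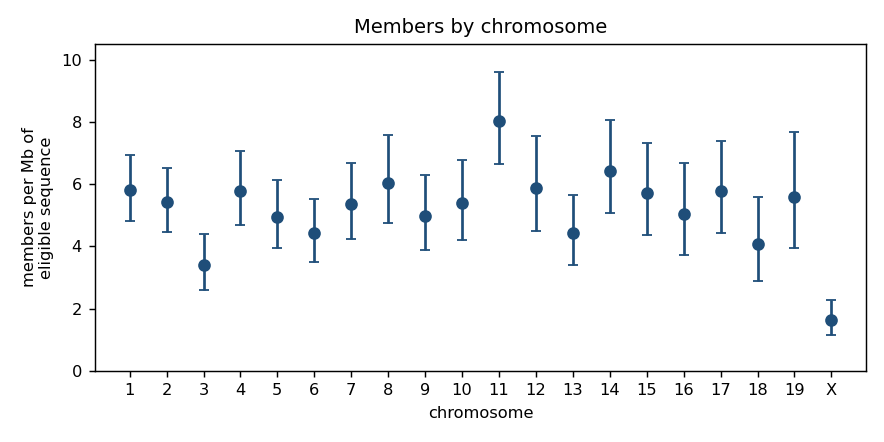
Members per Mb of eligible sequence (y axis) on each chromosome (x axis), with exact 95% Poisson intervals as bars. The X chromosome, at 1.65 members per Mb, lies below every autosome, and chromosome 11 is the highest at 8.02.

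The widths of members gave no separation from other classes. Their median width was 323 bp (317 to 329), beside 323 bp in introns, 321 bp beyond 100 kb and 322.5 bp in soft-masked sequence. The narrowest, 235 bp, was the width of 130 members. The widest member, 1256 bp, lay 37.3 kb downstream of Zfp11 at chr5:129632211-129633466. The next lay upstream of Foxd3 (1130 bp), Serp2 (1098 bp), Mkrn1 (846 bp) and Samd7 (777 bp). Foxd3 encodes a forkhead factor of pluripotent and neural crest cells. Of these 5 intervals, 4 stood on 2 lines of the list, which was so for 24 members in all.

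Members often had another Nanog peak close by. Within the distance often used to join enhancers into super-enhancers (between 12 and 13 kb, edge to edge), 393 members (27.1%, 24.8 to 29.5%) had another peak of any class and 273 (18.8%) another member. The share was 25.0% for intronic peaks and 27.2% for soft-masked peaks, and the ratios of members to both had intervals that included 1. Peaks beyond 100 kb had a neighbour in 20.1%, which made the share of members 1.35 times as high (1.15 to 1.60). Chained at that distance, the 273 members formed 130 stretches, 13 of them with 3 members and none with more. The stretch upstream of Serp2 spanned 14.8 kb and held peaks of 1098, 309 and 555 bp. The stretch downstream of Slc30a1, a zinc transporter gene, spanned 3.12 kb with peaks of 530, 239 and 259 bp. The stretch upstream of Scd2, which encodes a fatty acid desaturase, spanned 5.37 kb with peaks of 300, 459 and 243 bp. A stretch of 3 near Cbfa2t2 had a widest peak of the same 459 bp.

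The members had 1200 protein-coding genes as their nearest, 997 of them with 1 member, 164 with 2, 34 with 3, 3 with 4 and 2 with 5. Serp2 and Scd2 had 5 members each, all upstream. Klf4, Hdac2 and Zfp217 had 4 each. Hdac2 encodes a histone deacetylase, and its members lay 38.4, 49.9, 75.7 and 77.7 kb upstream. The Klf4 members lay 16.3, 17.5, 54.9 and 56.9 kb downstream, in 2 groups, with widths of 235, 270, 495 and 442 bp. The nearer group held a Sox copy in one peak and 2 Klf copies in the other. Jarid2, Myc, Cxcl13, Slc30a1 and Sall1 followed with 3 each. The Jarid2 members lay 7.02, 23.9 and 69.3 kb upstream, and each held at least 1 Sox copy. The Cxcl13 members, near a chemokine gene, lay 43.5 to 82.7 kb downstream and also each held a Sox copy, the widest of them 4. The Myc members lay 57.5 kb upstream and 25.5 and 27.4 kb downstream of this proto-oncogene.

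Gene lists were described by how many of their genes were the nearest protein-coding gene of a member. Over all 21755 protein-coding genes this share was 5.52%, and over the 15523 genes that were nearest to at least 1 base of eligible sequence it was 7.73%. The lists were chosen with earlier results of these data known, so their counts carry no test. Genes differ in how much eligible sequence surrounds them, with a median of 3.99 kb over all genes, so members per Mb are given beside each count, against 5.08 over all genes. A gene with no eligible sequence could not be nearest to a member. Where peaks of the intronic class are counted for a gene below, they need not lie in its own introns.

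Of the 17 pluripotency genes named by the study, 8 (47.1%) were nearest to a member, with 12 members in 0.657 Mb, or 18.3 per Mb (9.43 to 31.9). The median list gene had 32.1 kb of eligible sequence. The study picked these genes as examples of loci bound by the reprogramming factors in ESCs, so their share is not independent of binding in these cells. Sall1 had 3 members, from 28.4 to 90.8 kb downstream, with Sox copies in 2 of them. Nr5a2, which encodes a nuclear receptor of the network, had 2 members upstream, 17.4 and 91.3 kb away. Sox2 had 2 members 84.8 and 95.1 kb downstream, both with a Nanog core copy. Pou5f1, which encodes Oct4, had 1 member 15.5 kb upstream with a Sox copy, and Bhlhe40, a basic helix-loop-helix repressor gene, had 1 member 7.16 kb downstream with no motif. The other 9 genes, Nanog itself among them, had no member nearest to them. Of these 9, Utf1 had no eligible sequence, and Esrrb had 3 peaks of the intronic class.

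Of 14 other genes of naive pluripotency, 8 (57.1%) were nearest to a member, with 16 members in 0.549 Mb, or 29.1 per Mb (16.7 to 47.3). Klf4 led with 4 members and Tfap2c, which encodes an AP-2 family factor, followed with 3, of which the member 28.4 kb upstream held an Esrrb copy. Prdm14 had members 5.10 kb upstream and 42.2 kb downstream, each with a Sox copy. Klf2 had members 6.09 kb upstream and 15.3 kb downstream. Klf5 had 2 downstream, and the one at 41.5 kb held an octamer and a Nanog core copy.

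Among 31 genes of the LIF, TGF-beta, BMP, FGF and Wnt pathways, 13 (41.9%) were nearest to a member, with 21 members at 20.4 per Mb (12.6 to 31.2). Socs3, an inhibitor induced by LIF signalling, had 3 members, 5.55 kb upstream and 6.44 and 28.0 kb downstream. Smad7, an inhibitor of TGF-beta signalling, had 3 members between 6.50 and 37.5 kb upstream. Fzd7 had 3 upstream, at 9.71, 55.3 and 59.1 kb, the middle of them with a composite of 1 mismatch. Id2, a target of BMP signalling, and Spry2, an inhibitor of FGF signalling, had 2 upstream members each.

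Of 16 Polycomb genes, whose products keep developmental genes repressed, 12 had eligible sequence and 6 (37.5% of the 16) were nearest to a member. They had 10 members in 0.273 Mb, or 36.6 per Mb (17.6 to 67.4). Jarid2 and Rybp had 3 each, and Ezh1, Suz12 and Phf19 had 1 each, at 7.78, 13.2 and 23.5 kb upstream. Jarid2, Ezh1, Suz12 and Phf19 belong to or join the PRC2 complex and Rybp to PRC1. Ezh2, Eed and Rnf2 had no member, though Rnf2 had 2 peaks of the intronic class and Eed had 1.

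The remaining lists were smaller or closer to the background. Of 10 formative and primed genes, Foxd3 had 2 members and Dnmt3b, a DNA methyltransferase gene, had 1, and Otx2 and Fgf5 had none. The density for this list was 10.8 members per Mb (2.23 to 31.6). Otx2 did have 5 peaks of the intronic class, and Fgf5 had 0. Of 19 lineage regulators, 5 (26.3%) were nearest to a member, namely Gsc with 2 and Sox7, Cdx2, Neurog1 and Tfap2a with 1 each, at 10.0 members per Mb (3.68 to 21.8). Of 5 mesenchymal genes named by the study, 4 had eligible sequence, and Snai1 had 1 member, 7.97 kb upstream. That gave 4.15 members per Mb (0.105 to 23.1). Of the 9 regulators of the study's 9TR reprogramming network, 5 had eligible sequence. Among these 5, Gli2, a factor of Hedgehog signalling, had 2 members 22.1 and 22.6 kb upstream. These 2 members gave 20.4 per Mb with a wide interval (2.46 to 73.5). Of 83 cytosolic ribosomal protein genes, 50 had eligible sequence and 6 (7.23% of the 83) were nearest to a member. Their density was 8.85 members per Mb (3.56 to 18.2), and Rpl11 alone had 2.

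**Figure D3:**
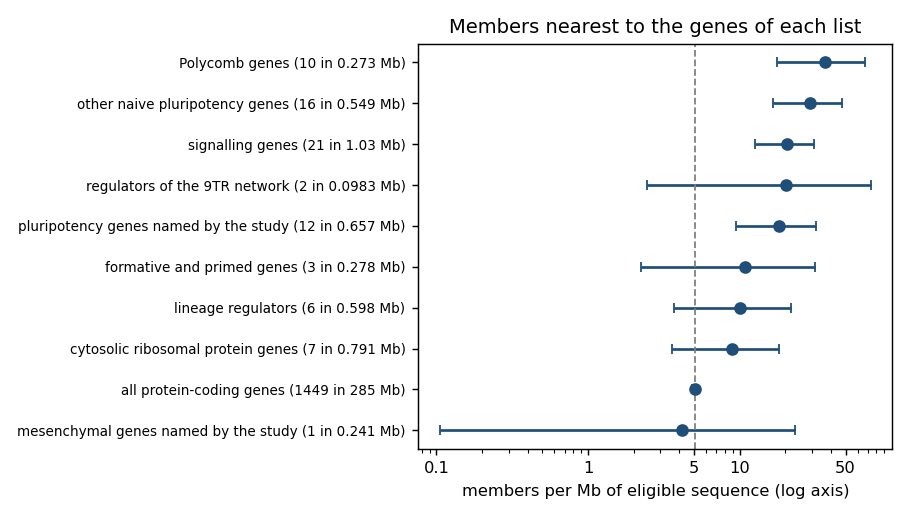
Members per Mb of eligible sequence nearest to the genes of each list (log x axis), with the number of members and the eligible sequence beside each list name; bars are exact 95% Poisson intervals and the dashed line is the value over all protein-coding genes, 5.08. The Polycomb list is at 36.6 and the other naive pluripotency genes at 29.1. The signalling genes are at 20.4 and the pluripotency genes named by the study at 18.3. The lists were chosen with earlier results of these data known, so no list is tested against the dashed line.

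Members differed in sequence from the DNA beside them. Flanks were windows of the same width starting 1 kb beyond each edge, 2857 in all, left out where they held N or overlapped a peak. Members had a median GC content of 47.8% and flanks 45.2%, and the median difference of a member from its own flanks was 3.32 percentage points (2.99 to 3.62). The observed over expected frequency of CpG did not separate them, at 0.185 in members and 0.171 in flanks, with an interval of the paired difference that included 0.

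Motifs of the Oct, Sox and Klf families and of Esrrb were more frequent in members than in flanks. Copies of the composite were in 63 members (4.35%) and 14 flanks (0.490%), giving a ratio of 8.87 (4.99 to 15.8). The octamer was in 6.14% and 1.93%, a ratio of 3.19 (2.29 to 4.44). The Sox motif, CCATTGT or CCTTTGT, was in 457 members (31.5%), against 11.7% of flanks (ratio 2.69, 2.37 to 3.05), and was the most frequent motif searched. CCATTGT alone gave 3.27 (2.65 to 4.02) and CCTTTGT 2.55 (2.16 to 3.0). The Klf motif was in 9.11% and 2.42%, a ratio of 3.77 (2.84 to 5.01). Of its 4 forms, GCCCCGCCC gave 8.22 (3.38 to 20.0) on 25 members and 6 flanks, and GCCCCACCC gave 4.37 (2.81 to 6.79). GCCACGCCC gave 3.70 (1.57 to 8.70) on 15 members and 8 flanks, and GCCACACCC gave 3.13 (1.97 to 4.96). The 4 intervals overlapped, so the forms were not separated. The Esrrb motif TCAAGGTCA was in 3.73% and 1.26%, a ratio of 2.96 (1.95 to 4.49).

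The core motif of Nanog itself was less separated. The core CCATTA was in 17.7% of members, against 13.0% of flanks (ratio 1.36, 1.18 to 1.58). The extended form GCCATTAA, which contains the core, was in 1.86% and 0.805%, a ratio of 2.31 (1.33 to 4.02). That interval overlapped those of the Sox, octamer, Klf and Esrrb motifs.

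Other motifs also differed. The Zic motif CCTGCTG was in 21.8% and 8.61%, a ratio of 2.53 (2.17 to 2.96). The Tfap2 motif GCCNNNGGC gave 1.95 (1.59 to 2.38), the Tcf/Lef motif CTTTGAT 1.62 (1.30 to 2.03), the Tead motif GGAATG 1.47 (1.31 to 1.66) and the AP-1 motif TGACTCA 1.31 (1.05 to 1.62). The Otx motif GGATTA was less frequent in members, 11.2% against 15.7%, a ratio of 0.711 (0.601 to 0.842). For Stat3 (TTCCNGGAA), Prdm14 (GGTCTCTAA) and Smad (GTCTAGAC) the interval of the ratio included 1. So did that of AGATAAG, the motif searched for Gata factors. The same held for CTCF and, over whole peaks and all flanks, for the Myc E-box, CACGTG, at 0.835 (0.604 to 1.16). In the central 200 bp the Myc E-box ratio was 0.558 (0.341 to 0.912), below 1. In all, 12 of 19 motifs were above 1, 6 included 1 and 1 was below. Every motif was searched on both strands.

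**Figure D4:**
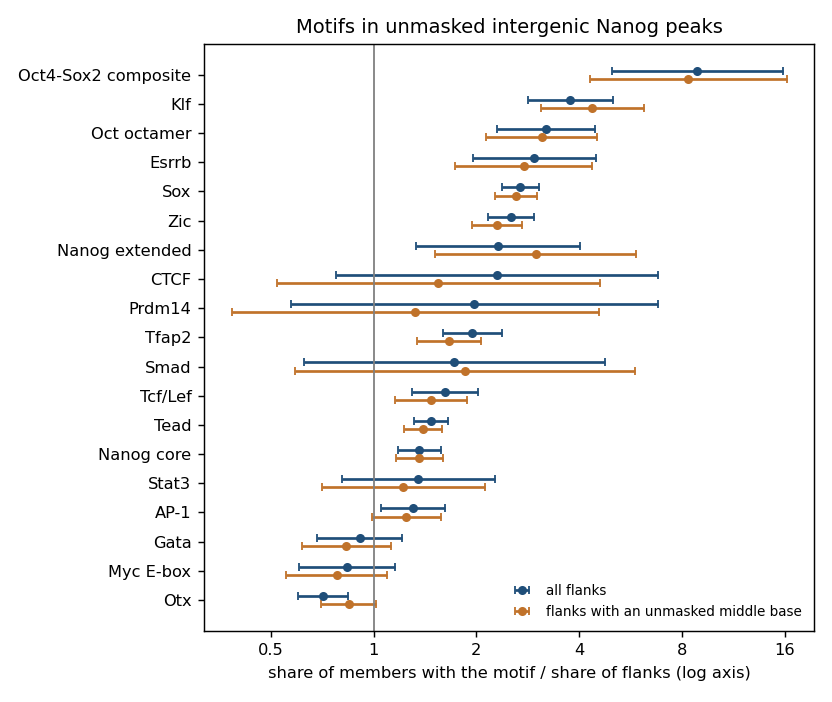
Ratio of the share of members with each motif to the share of flanks (log x axis) for 19 motifs (y axis), against all flanks (blue) and against flanks whose middle base is unmasked (orange), with 95% intervals as bars and a grey line at 1. The Oct4-Sox2 composite is highest at 8.87 and the Otx motif lowest at 0.711.

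Against flanks of matched GC content, the Tfap2 ratio was 1.23 (0.848 to 1.79), the Tead ratio 1.17 (0.930 to 1.47), the extended Nanog ratio 1.97 (0.911 to 4.27) and the AP-1 ratio 1.25 (0.821 to 1.90), all with intervals that included 1, while the Klf ratio was 2.21 (1.32 to 3.70) and the octamer ratio 7.35 (3.13 to 17.3). The Myc E-box ratio was then 0.464 (0.252 to 0.854), which excluded 1. Against flanks with an unmasked middle base, an alternative chosen after seeing the data, the Otx ratio was 0.846 (0.703 to 1.02) and the AP-1 ratio 1.25 (0.987 to 1.57).

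Motif density at the peak centre was compared with that 500 to 1000 bp away, which lies outside a member of the median width, 323 bp. The comparison does not show where within a peak the copies lie. Of the 19, 11 were denser within 50 bp of the centre than 500 to 1000 bp away, 2 were less dense, and for 6 the interval of the ratio included 1. The composite was 12.7 times as dense (7.02 to 23.3), Klf 6.19 times (4.47 to 8.51), the octamer 4.76 times (3.18 to 7.02), Sox 4.69 times (4.04 to 5.44) and Zic 4.00 times (3.30 to 4.83). The Nanog core was 1.88 times as dense (1.51 to 2.31). For the extended Nanog motif the interval included 1 (1.78, 0.724 to 3.81). The Otx motif and the Myc E-box went the other way, at 0.711 (0.525 to 0.946) on 51 copies near the centre and 0.539 (0.265 to 0.985) on 11.

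**Figure D5:**
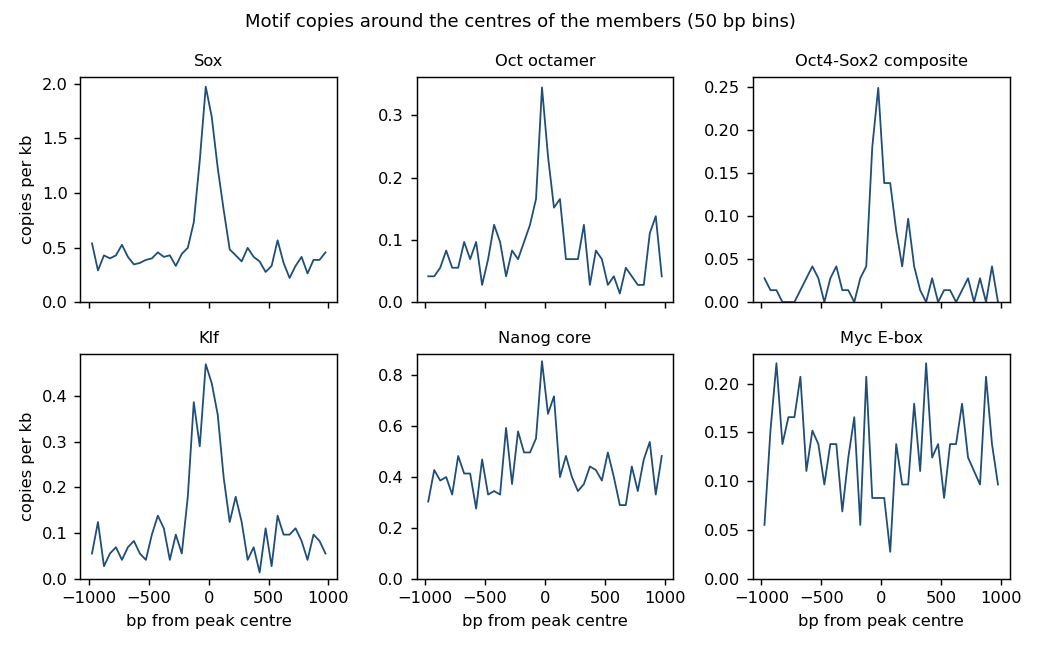
Copies per kb (y axes, each on its own scale) of 6 motifs in 50 bp bins up to 1000 bp on either side of the centre of the members (x axes). Sox, octamer, composite and Klf copies rise at the centre and Nanog core copies rise less (1.88 times the density at 500 to 1000 bp), while the Myc E-box shows no central rise.

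Many members held no copy of the pluripotency motifs in the forms searched. Of the 6 motifs composite, octamer, Sox, Nanog core, Klf and Esrrb, 813 members (56.1%) held at least 1, against 27.6% of flanks, and 636 (43.9%) held none. Only the composite of these 6 was allowed mismatches, so a member without a copy may still hold a site in another form. At least 3 were in 23 members (1.59%) and 0.105% of flanks. A Sox copy was in 32.6% of members with an octamer and 31.5% of those without, a ratio of 1.04 (0.760 to 1.41). With and without a Klf copy the Sox shares were 29.5% and 31.7%, a ratio of 0.931 (0.707 to 1.23), and with and without an Esrrb copy they were 18.5% and 32.0%, a ratio of 0.578 (0.329 to 1.02).

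Motif shares of members were compared with those of the other classes. Of 57 comparisons of a motif share with another class, 8 had an interval that excluded 1, and none of the 8 was against introns. In the central 200 bp the Sox ratio to introns was 1.15 (1.03 to 1.29), which excluded 1, beside 1.09 (0.986 to 1.20) over whole peaks. Against peaks beyond 100 kb, members held more Klf (9.11% and 5.24%, a ratio of 1.74, 1.23 to 2.45) and more Esrrb (3.73% and 1.57%, a ratio of 2.37, 1.28 to 4.40) and fewer octamers (6.14% and 8.39%, a ratio of 0.732, 0.538 to 0.997). Set against their own flanks, those far peaks had ratios of 4.63 (2.64 to 8.10) for Klf, 1.18 (0.580 to 2.40) for Esrrb and 3.31 (2.24 to 4.90) for the octamer. Their median GC content was 45.4%, beside 47.8% in members, and its part in these shares was not tested. In the central 200 bp the octamer ratio was 0.706 (0.489 to 1.02), which included 1, while the ratios of the Tcf/Lef motif, 0.714 (0.516 to 0.988), and of the Gata motif, 0.581 (0.354 to 0.953), came to exclude it. Against soft-masked peaks, members held more composite (2.08, 1.08 to 4.02), Sox (1.19, 1.00 to 1.40), Klf (1.61, 1.08 to 2.41) and Tfap2 copies (1.49, 1.07 to 2.09). Zic copies were fewer than in soft-masked peaks, in 21.8% against 36.4%, a ratio of 0.599 (0.514 to 0.698). Within the members, shares of 7 motifs (composite, octamer, Sox, both Nanog forms, Klf and Esrrb) were compared between bands of distance, and the intervals overlapped for each. Sox was in 30.9% from 5 to 20 kb, 32.0% from 20 to 50 kb and 32.0% from 50 to 100 kb, and Klf in 9.48%, 9.30% and 8.22%.

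Words of 8 bases were also ranked without a motif list, on the members of even-numbered chromosomes, and read on the 794 members of odd-numbered chromosomes and X. Of the 20 top words, 19 were more frequent in those members than in their flanks, 12 of them with an interval above 1, and for the other 8 of the 20 the interval included 1. The word ranked first, CATTGTTC, which holds the Sox half-site, was in 3.65% of members there, against 0.827% of flanks (ratio 4.41, 2.31 to 8.44). The next 3 words, CCTTGCAG (1.58, 0.885 to 2.83), ACACCCAA (1.65, 0.917 to 2.97) and TGCCATTG (1.78, 0.947 to 3.35), had intervals that included 1. CCTTTGTT, which holds a Sox motif and followed them, was in 9.07% and 2.16%, a ratio of 4.19 (2.81 to 6.24). Lower in the ranking, ATGCTAAT was in 5.79% and 1.02%, a ratio of 5.69 (3.24 to 9.98), and is named because that ratio was the highest of the 20. It differs from the octamer ATGCAAAT at 1 base and did not count as an octamer copy.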

How the data were processed

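Nanog ChIP-seq was analysed from the peak list of 1 immunoprecipitated sample of Bruce-4 ESCs, and the input sample was not analysed here. The authors deposited peaks as chromosome, start and end (positions in base pairs on mm10), with no count or score. Per the study's methods and the submitters' processing notes, reads were checked with FastQC, aligned with Bowtie2, filtered for quality, duplicates and blacklisted regions with bedtools and SAMtools, and MACS2 was used to call peaks. Its threshold and the use of the input in it are not given in the sources used here. Both decide which weak sites are listed.

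Each distinct interval counted as 1 peak. Classes were assigned from GENCODE vM21 genes and the soft-masked GRCm38 sequence of RefSeq at the middle base of each peak, and the same conditions applied to every base gave the eligible sequence. Intervals were exact Poisson, exact conditional, Clopper-Pearson or, for ratios of shares, on the log scale, at 95%. No p-value was computed across peaks. Motif, distance and interval code was tested on simulated data, with Python 3.11.15, numpy 2.4.6, scipy 1.17.1 and matplotlib 3.10.9.

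Named genes were the 10 nearest to the most members, with ties ordered by their widest member, and up to 5 of each list, by members and then distance. Named peaks were the 5 widest, the 3 stretches with the most members, ties again by the widest peak, and those at the limits of the rule. Sequences were chosen by composite mismatches, kinds of motif and width, none from chromosome 18, and a further sequence is not reported here. Genes named as having no member, and the choice of which sequences to print, were taken after their values were seen. The members, lists and motifs were chosen with earlier results of these data known. The last 8-base word named and the minimum of 20 members for such a word were chosen after seeing the words.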

Additional observations from a re-analysis of the deposited data

How the results depend on the processing

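No result whose interval excluded 1 changed direction. Of 203 recomputed values, 181 stayed within the interval of the value reported or within 1.5 times a count, and 22 moved. Requiring 90% of the bases in upper case left 737 members. The density ratio to introns was 1.36 with members up to 50 kb and 1.06 up to 200 kb, and the ratio to sequence beyond the limit was 3.09 at 200 kb. The X to autosome ratio was 0.559 per protein-coding gene. A neighbour was found for 15.7% of members within 5 kb and 40.2% within 25 kb. Against flanks, the composite ratio was 3.75 with 3 mismatches allowed, and the Esrrb ratio 5.33 with flanks 5 kb away. In the central 200 bp the Sox ratio was 3.84 and the Nanog core ratio 1.58. With matched GC content the octamer ratio was 7.35, the Klf ratio 2.21 and the Tfap2 ratio 1.23, and in wider peaks the Klf ratio was 2.69. The causes of these shifts were not tested. The Myc E-box ratio was 0.464 with matched GC content and 0.558 in the central 200 bp. In 12 cases an interval that had excluded 1 came to include it, and in 5 the opposite held. Leaving out the 54 members that fell into 19 groups of similar sequence, an alternative chosen after seeing the data, moved no motif ratio outside its interval. No paired analysis was possible because the series has values for 1 sample. The depth of the library is unknown, so sites without a listed peak cannot be called unbound.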
